A study of Homo sapiens with 9 samples.

Results

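The genes described here are 41 genes of the actin cytoskeleton, together with the transcription factor SRF and its cofactors MRTFA and MRTFB. They were chosen by symbol, as actin isoforms, proteins that bind or move actin filaments, and genes often listed as targets of SRF. Earlier results of these data were known when they were chosen. Their shares beside those of all tested genes therefore describe this set only. All 41 were found among the 23727 genes of the deposited count table. Of these, 38 had enough counts to be tested, among 15273 tested genes, and MYL9, FLNC and LMOD1 did not.

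RNA sequencing was done on LN229, an established human glioblastoma line. The 3 groups held untreated cells at 0 h, cells given 500 µM sodium formate for 8 h, and cells given the same dose for 24 h, with 3 libraries in each. Formate is a small metabolite that carries 1-carbon units in folate metabolism. All groups were the same line in the same serum-containing medium, and the untreated cells were all taken at 0 h, so formate and time in culture cannot be told apart. The labels do not say that the libraries came from separate cultures, so p-values measure only the spread between these libraries.

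Actin cycles between monomers and filaments, and tropomyosins, calponins, crosslinkers and myosin II turn filaments into contractile bundles called stress fibres, which end at focal adhesions. MRTFs bind actin monomers. When monomers are used up in filaments, MRTFs enter the nucleus and act with SRF at a DNA motif called the CArG box, found near many genes of the filament machinery. SRF also works with ternary complex factors downstream of ERK signalling, on a partly separate set of genes such as EGR1. In glioma cells, actin and nonmuscle myosin II serve migration and cell shape.

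Total counts ran from 22222298 to 25848242 per library, and a level is given as CPM, the count scaled to a common library size with TMM factors. A level of 0.116 to 0.141 CPM equals 3 counts, depending on the library. Among tested genes with a mean of at least 5 CPM, levels went with gene length most strongly in untreated replicate 1. Its genes with under 1500 exon bases lay at a median of 0.43 log2 units above the mean of all 9 libraries. Those over 9000 bases lay at -0.24, while no other library passed 0.20 in size in any length class. Replicate 2 at 24 h ran the other way, from -0.198 to 0.093. The median log2 fold change at 24 h against 0 h also went with length. It was -0.22 under 1500 bases, -0.19 from 1500 to 3000 and 0.11 over 9000. Markers of the line were present, with 948 CPM of NES, 4903 of VIM and 80.0 of SOX2 on average at 0 h, whereas the astrocyte marker GFAP stayed under 1 CPM in every library. Differences in bulk RNA cannot tell fewer expressing cells from less RNA per cell.

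**Figure D1:**
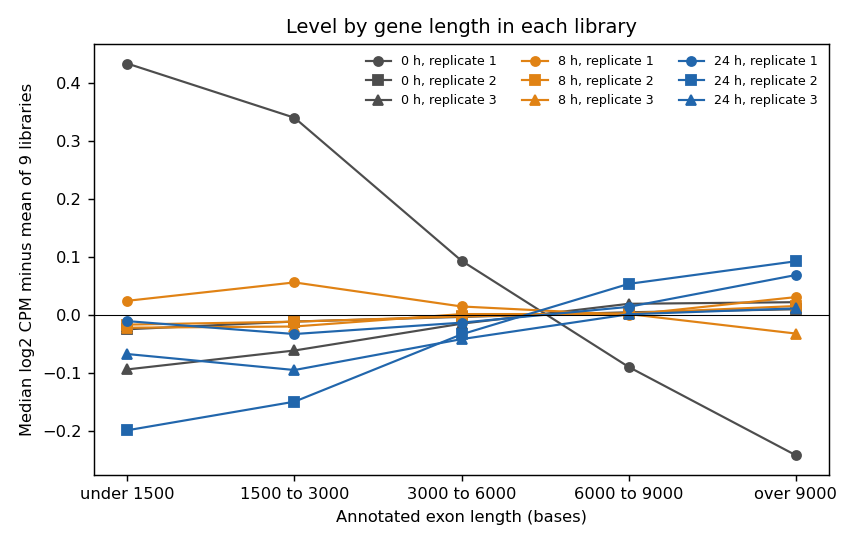
Each line is 1 library, and each point is a median of log2 CPM minus the mean of the 9 libraries, by annotated exon length in bases. Medians are over tested genes with a mean of at least 5 CPM and a known length. Untreated replicate 1 falls from 0.43 for the shortest genes to -0.24 for the longest. Replicate 2 at 24 h rises from -0.198 to 0.093, and the other 8 lines do not pass 0.20 in size.

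Promoter sequences are shown for the SRF motif, since the genes were grouped around SRF. RefSeq windows on GRCh38.p14 run from 250 bases before to 50 bases after an annotated start, and 38 of the 41 genes had one; ACTB, MYL9 and TAGLN did not. A complete CArG box stood in a window of 10 of these 38 genes (26.3%), which were ACTG1, ACTG2, ACTN1, CNN2, FHL1, FHL2, FLNA, SRF, TGFB1I1 and TPM4. Among all 27305 genes with a window, 438 (1.60%) had one. By window, the box stood in 12 of 82 (14.6%) for these genes and in 454 of 35116 (1.29%) for all genes. The box reads the same way on both strands, so each is counted once. The motif GGAATG, bound by TEAD factors and searched on both strands, stood in 20.7% of their windows and 14.0% of all windows. TGANTCA, bound by AP-1, stood in 9.76% and 7.71%. These are letter matches and were not tested for binding.

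The stretches below belong to the genes with a box that are described individually. They are written 5′ to 3′ along each gene, with the CArG box in capitals. FHL2 has starts far apart. The stretches printed for 2 of them lie at chr2:105438530-105438779 and chr2:105399091-105399120, both on the minus strand, and each holds its own box. A further FHL2 window, with its start close to the first, shares the box of the first and is not printed. The ACTG2 boxes lie at chr2:73892888-73892917 and chr2:73892925-73892954 on the plus strand. The others are ACTN1 at chr14:68977655-68977816 (minus), ACTG1 at chr17:81512874-81512903 (minus) and SRF, whose own start is preceded by a pair of boxes, at chr6:43171019-43171268 (plus). Where an untranslated exon is annotated in the window, only the part before it or 30 bases around the box are printed.
FHL2, first start: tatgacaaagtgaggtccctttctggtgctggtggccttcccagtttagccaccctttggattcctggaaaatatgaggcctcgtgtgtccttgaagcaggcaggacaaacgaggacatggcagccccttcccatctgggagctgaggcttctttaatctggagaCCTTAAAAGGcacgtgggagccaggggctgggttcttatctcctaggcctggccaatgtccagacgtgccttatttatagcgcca
FHL2, other start: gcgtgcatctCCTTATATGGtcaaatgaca
ACTG2, distal box: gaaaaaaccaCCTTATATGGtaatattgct
ACTG2, proximal box: cgtcagctggCCTTTTTAGGgactttgttt
ACTN1: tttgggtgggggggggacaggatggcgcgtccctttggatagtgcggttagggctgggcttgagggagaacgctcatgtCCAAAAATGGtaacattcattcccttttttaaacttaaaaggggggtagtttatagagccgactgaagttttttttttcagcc
ACTG1: ggaaagatcgCCATATATGGacatgttctg
SRF: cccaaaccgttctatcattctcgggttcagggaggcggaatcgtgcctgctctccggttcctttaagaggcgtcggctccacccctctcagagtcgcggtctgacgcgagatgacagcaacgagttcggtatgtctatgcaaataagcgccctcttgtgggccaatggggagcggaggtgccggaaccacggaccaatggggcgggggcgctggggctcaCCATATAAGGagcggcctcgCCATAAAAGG

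After 24 h of formate, 4 of the 38 tested genes were lower than in untreated cells and none was higher in edgeR's quasi-likelihood test at an adjusted p under 0.05. The 4 were MYPN, TAGLN, ACTG2 and FHL2. Over all tested genes, 4.25% passed in this comparison, 1.77% lower and 2.47% higher. The median log2 fold change of the 38 was -0.27, beside 0.01 for all tested genes. Of the 38, 28 lay below 0, beside 49.1% of all tested genes. The set was chosen with earlier results of these data known, so these values are descriptions and not tests of the set. Changes were small for most: 35 of 38 had a log2 fold change under 1 in size, and the median standard error was 0.16. With the replicate number as a block, 18 of the 38 passed, 16 lower and 2 higher (MYH10 and CALD1), beside 24.1% of all tested genes, 11.6% lower and 12.6% higher. The untreated libraries and those at 24 h did not overlap for 13 genes that were lower (beside 14.4% of all tested genes) and 2 that were higher (beside 15.9%).

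**Figure D2:**
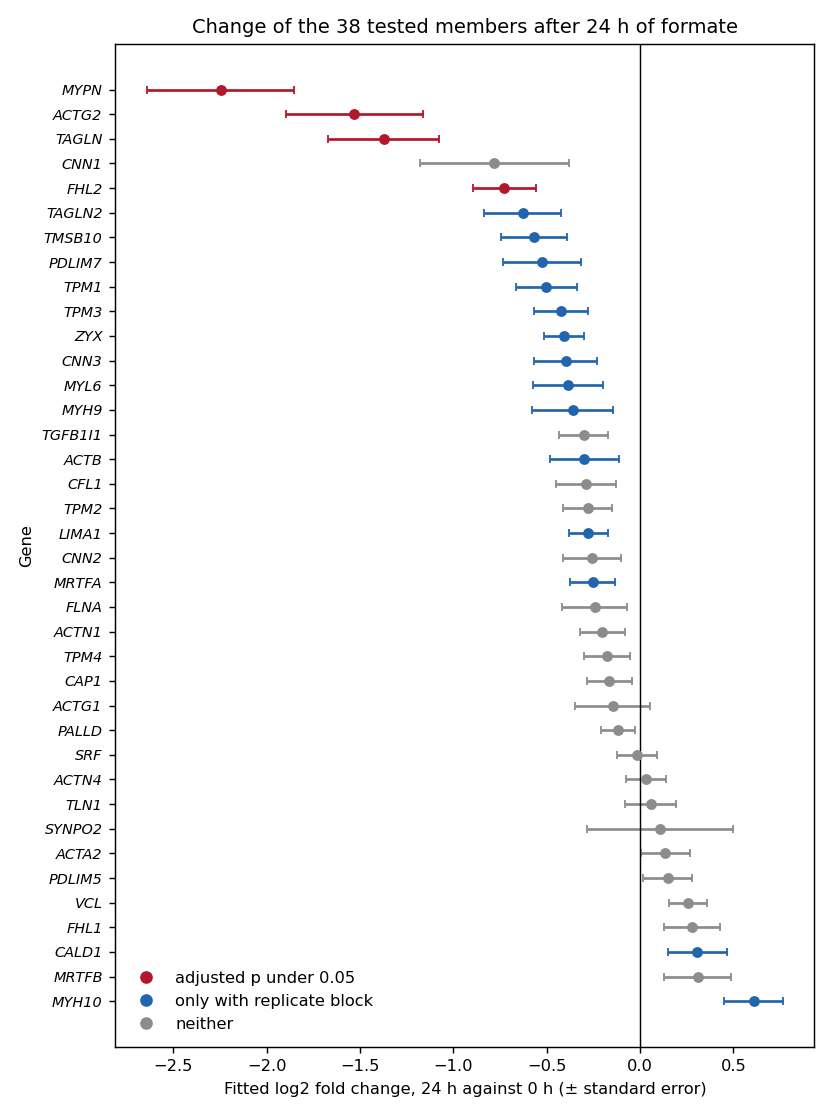
Each point is the fitted log2 fold change of 1 of the 38 tested genes at 24 h against 0 h, with its standard error as a bar. The 4 points in red (MYPN, ACTG2, TAGLN and FHL2) pass an adjusted p of 0.05, the points in blue pass only with the replicate block, and 28 of 38 lie left of 0.

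At 8 h none of the 38 passed the test against untreated cells. No gene of the 15273 passed the adjusted threshold (0.0%), and 79 (0.517%) had an unadjusted p under 0.05, none of them among the 38. With the block the count was again 0, with 155 genes (1.01%) at an unadjusted p under 0.05, and DESeq2 also gave 0. Fitted log2 fold changes of the 38 ran from -0.40 (SYNPO2) to 0.23 (FLNA), with a median of -0.01. That median rested on single libraries: without untreated replicate 1 it was 0.12 with 7 of 38 below 0, and without replicate 1 at 8 h it was -0.07 with 27 below 0. Without replicate 3 at 8 h it was 0.05 with 10 below 0. Untreated libraries and those at 8 h did not overlap for 1 tested gene, LIMA1, which was higher at 8 h, and for none that was lower, beside 1.43% and 1.89% of all tested genes. Its values differed little, at 179, 176 and 177 CPM at 0 h and 185, 185 and 182 at 8 h.

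From 8 h to 24 h, MYPN and TAGLN fell and no member rose, beside 4.56% of all tested genes that passed (1.72% lower, 2.84% higher). The median log2 fold change of the 38 was -0.25, and 30 lay below 0, beside 47.9% of all tested genes. The libraries did not overlap for 17 genes that were lower (beside 16.2% of all tested genes) and 3 that were higher (beside 18.2%). Both comparisons use the libraries at 24 h, so their values are given side by side and are not independent.

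**Figure D3:**
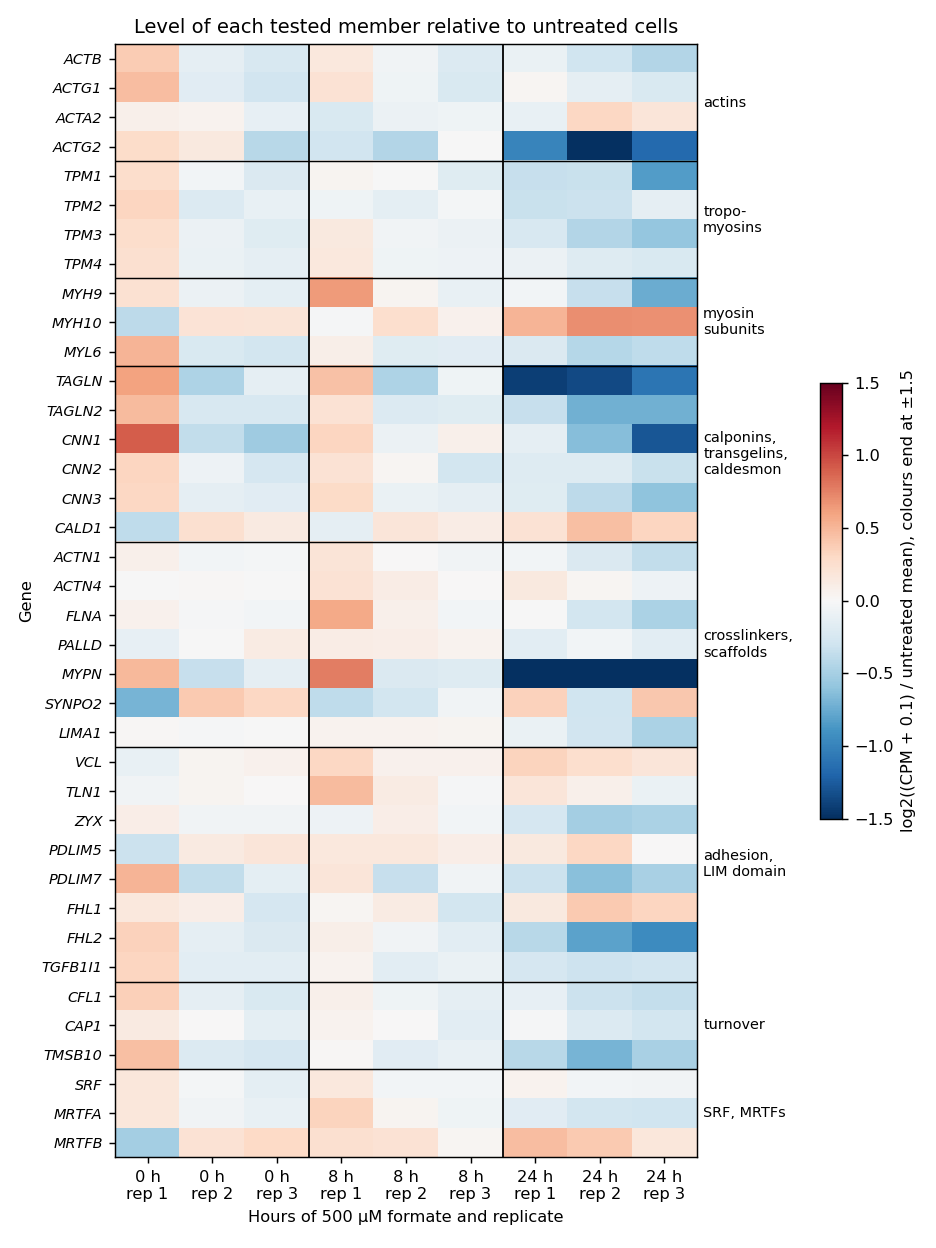
Each cell is the log2 ratio of a gene's CPM (plus 0.1) in 1 library to the mean of the 3 untreated libraries, with blue for lower and red for higher and colours that end at 1.5. MYPN, TAGLN and ACTG2 are dark blue in all 3 libraries at 24 h, MYH10 is red there, and untreated replicate 1 differs from the other untreated libraries in many genes.

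Replicate 1 was often the highest of its group for these genes. It was highest of the 3 libraries for 29 of 38 genes at 0 h (76.3%), 29 at 8 h (76.3%) and 28 at 24 h (73.7%), beside 43.4%, 38.7% and 38.6% of all tested genes. Together the 41 genes took 2.58% ± 0.465 (SD, n = 3) of the CPM at 0 h, 2.60% ± 0.342 at 8 h and 2.17% ± 0.235 at 24 h. By library the share was 3.11%, 2.38% and 2.26% at 0 h and 2.42%, 2.14% and 1.96% at 24 h, so the groups overlapped.

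Of the actin isoforms, the cytoplasmic actins made up nearly all the actin RNA. ACTB encodes beta-actin, the main actin of the cell cortex, and stood at 8533, 5981 and 5579 CPM at 0 h, 7368, 6359 and 5719 at 8 h, and 6159, 5342 and 4848 at 24 h. The libraries at 24 h overlapped the untreated ones. Its log2 fold change at 24 h was -0.30 (SE 0.18, adjusted p = 0.316 in edgeR's quasi-likelihood test), and with the block it passed narrowly (adjusted p = 0.0468). ACTB ranked 2 by CPM among all tested genes at 0 h. By name, 10 annotated pseudogenes belong to it, and the sequence they share with it was not measured, so its count is uncertain to that extent. Such pseudogenes also exist for other genes described here, among them CNN2 with 11, TPM3 and CFL1 with 8 each and MYL6 with 5.

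ACTG1, gamma-actin, stood at 5532, 3585 and 3287 CPM at 0 h, 4675, 3839 and 3426 at 8 h, and 4122, 3656 and 3431 at 24 h, with a log2 fold change at 24 h of -0.15 (SE 0.20, adjusted p = 0.659). The groups overlapped throughout, and 20 pseudogenes are named after it. ACTA2, the smooth muscle alpha-actin that marks myofibroblasts, stood at 16.3, 16.0 and 14.1 CPM at 0 h, 13.1, 14.5 and 14.8 at 8 h, and 14.3, 19.2 and 17.6 at 24 h. Its change of 0.14 did not pass (SE 0.13, adjusted p = 0.518), and 30.1% of its exons overlap genes on the other strand.

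ACTG2, the gamma-actin of visceral smooth muscle, was close to absent. It had 18, 20 and 11 counts at 0 h, 12, 11 and 16 at 8 h, and 7, 4 and 6 at 24 h, or 0.849, 0.770 and 0.487 CPM falling to 0.296, 0.173 and 0.249. All 3 libraries at 24 h lay below the other 6. The log2 fold change was -1.53 (SE 0.37, adjusted p = 0.0419; 0.0138 with the block), at levels only slightly above that of 3 counts. This call was lost without untreated replicate 1 (adjusted p = 0.103) or 2 (0.0809), without replicate 2 (0.168) or 3 (0.164) at 24 h, and without replicate 2 (0.0616) or 3 (0.0621) at 8 h.

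Per kilobase of exon, ACTB made up 58.1% ± 1.22 (SD, n = 3) of the RNA of the 4 actins at 0 h and 55.2% ± 0.713 at 24 h. The shares by library were 56.7%, 58.5% and 59.0% at 0 h and 55.9%, 55.3% and 54.5% at 24 h, without overlap. ACTG1 took most of the rest, 41.8% ± 1.25 at 0 h and 44.6% ± 0.676 at 24 h. ACTA2 made up 0.163% ± 0.0310 and 0.207% ± 0.0468. With 3 libraries against 3, an exact permutation test cannot go below p = 0.10, so these shares were not tested.

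The tropomyosins, which run along filaments and set which proteins may bind them, all had log2 fold changes below 0 at 24 h, with a median of -0.35, and none passed without the block. TPM1 stood at 1271, 1027 and 912 CPM at 0 h, 1087, 1057 and 934 at 8 h, and 833, 839 and 595 at 24 h. Every library at 24 h was below every other library. The log2 fold change was -0.50 (SE 0.16, adjusted p = 0.0952; 0.00372 with the block), and 21.4% of its exons overlap genes on the other strand. TPM3 likewise passed only with the block, at -0.42 (adjusted p = 0.105; 0.00389 with the block), while TPM2 at -0.28 and TPM4 at -0.18 did not pass in either fit. Per kilobase of exon, TPM3 was the most abundant at 39.1% ± 0.0712 of the family at 0 h, ahead of TPM1 at 35.5% ± 0.969. This order depends on the length used: with the longest transcript TPM1 came first, at 44.5%, and TPM3 was at 31.2%.

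The heavy chains of nonmuscle myosin II, the motor of stress fibres, had log2 fold changes of opposite sign. MYH9, the IIA heavy chain, stood at 1621, 1297 and 1252 CPM at 0 h, 2152, 1424 and 1283 at 8 h, and 1338, 1083 and 825 at 24 h. The ranges overlapped because replicate 1 was the highest in each group. The log2 fold change at 24 h was -0.36 (SE 0.22, adjusted p = 0.306; 0.0177 with the block). MYH10, the IIB heavy chain typical of neural cells, stood at 186, 281 and 280.3 CPM at 0 h, 241, 293 and 255 at 8 h, and 347, 398 and 395 at 24 h. All 3 libraries at 24 h lay above the other 6.

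The MYH10 change was 0.61 (SE 0.16) and missed the threshold without the block (adjusted p = 0.0514), passing with it (0.00165). Without untreated replicate 1, its lowest library, the change was 0.42 (adjusted p = 0.0677). Per kilobase of exon MYH10 made up 10.3%, 17.8% and 18.3% of the pair at 0 h, 10.1%, 17.0% and 16.6% at 8 h, and 20.6%, 26.9% and 32.4% at 24 h. The mean share was 15.5% ± 4.48 (SD, n = 3) at 0 h and 26.6% ± 5.89 at 24 h, without overlap, and within each replicate number it was higher at 24 h. The exons of both genes are of nearly equal length, 9012 and 9011 bases. MYL6, the essential light chain of both motors, was at -0.39 (adjusted p = 0.217; 0.0484 with the block). MYL9, the smooth muscle regulatory light chain, had 0 to 3 counts in every library and was not tested.

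**Figure D4:**
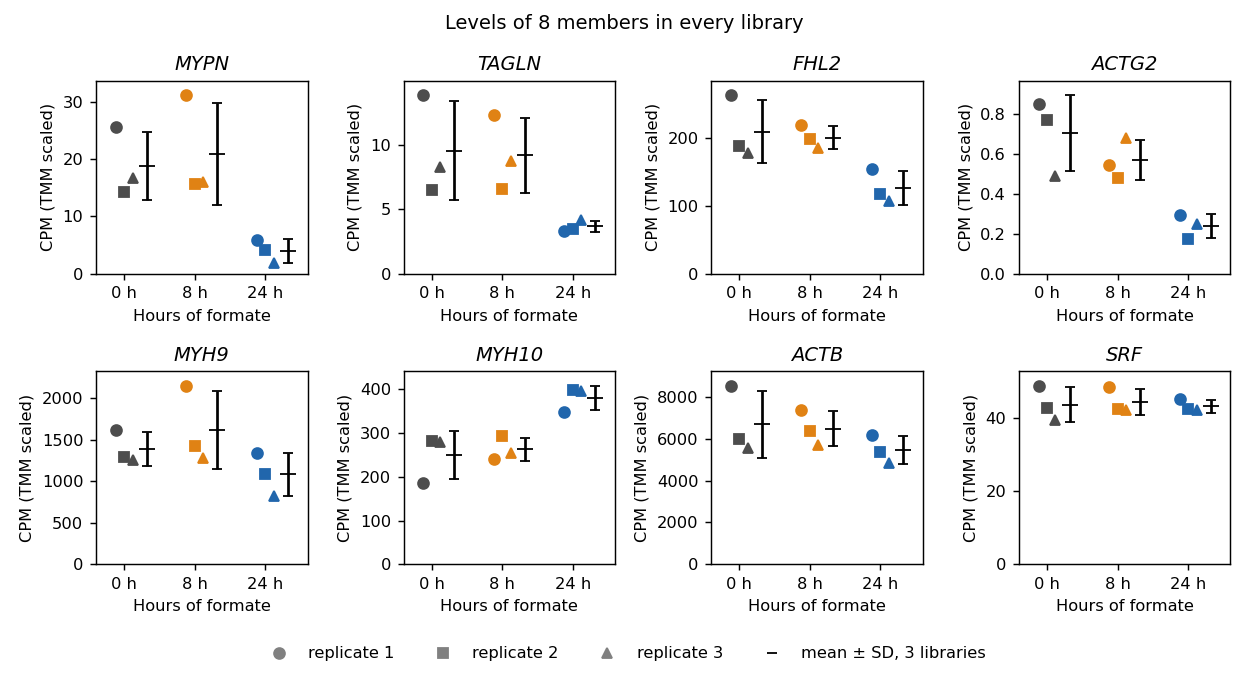
Points are the CPM of each library for 8 of the genes by hours of formate, with the replicate given by the symbol and the mean ± SD of 3 libraries as a bar. MYPN, TAGLN, FHL2 and ACTG2 are lowest at 24 h, MYH10 is highest there, and all SRF points lie between 39.3 and 48.7 CPM.

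The calponin and transgelin family, which binds along filaments, included TAGLN, one of the standard SRF targets. TAGLN encodes transgelin (SM22) and lies at chr11:117199321-117204782 in GENCODE 29. It stood at 13.9, 6.55 and 8.27 CPM at 0 h, 12.3, 6.56 and 8.72 at 8 h, and 3.34, 3.49 and 4.19 at 24 h. The 3 libraries at 24 h lay below the other 6, and replicate 1 was the highest at both earlier times. TAGLN fell by 1.37 on the log2 scale against 0 h (SE 0.30, adjusted p = 0.0316; 0.00119 with the block) and fell by 1.32 against 8 h (adjusted p = 0.0341). Without untreated replicate 1 the change against 0 h was -1.03 and missed the threshold (adjusted p = 0.0560; 0.000729 with the block), as it did without replicate 1 (0.0560), 2 (0.134) or 3 (0.134) at 24 h and narrowly without replicate 3 at 8 h (0.0501). Of its exons, 11.4% overlap PCSK7 on the other strand.

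Its paralog TAGLN2 was far more abundant, at 682 ± 208 CPM (SD, n = 3) at 0 h and 441 ± 68.9 at 24 h, and did not overlap between the groups. Its log2 fold change of -0.63 passed only with the block (adjusted p = 0.0944; 0.00111 with the block). TAGLN2 and CNN3 have 2487 and 2838 exon bases, and genes of 1500 to 3000 bases had a median log2 fold change of -0.19 at 24 h. Per kilobase of exon TAGLN was 0.525% ± 0.0859 of the calponins and transgelins at 0 h and 0.303% ± 0.0733 at 24 h, without overlap. The calponins CNN1 (-0.78), CNN2 (-0.26) and CNN3 (-0.40) did not pass without the block (adjusted p = 0.233, 0.304 and 0.166), and CNN3 passed with it (0.00619).

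Caldesmon, which links actin to myosin, had a log2 fold change above 0. CALD1 stood at 329, 503 and 471 CPM at 0 h, 391, 483 and 463 at 8 h, and 496, 583 and 533 at 24 h, and the range at 24 h touched that at 0 h. The log2 fold change was 0.31 (SE 0.16, adjusted p = 0.234; 0.0285 with the block). With gene length and the block both in the fit it was 0.20 and no longer passed (adjusted p = 0.0558).

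Among crosslinkers and scaffolds, MYPN showed the largest change of the 41 genes. It encodes myopalladin, a scaffold that binds alpha-actinin in the sarcomere and carries MRTF and SRF signals in muscle, and lies at chr10:68106117-68212017. It stood at 25.6, 14.3 and 16.6 CPM at 0 h, 31.1, 15.7 and 15.9 at 8 h, and 5.92, 4.14 and 1.82 at 24 h. Every library at 24 h was below every library at 0 h and 8 h. The mean at 0 h was 4.75 times that at 24 h. MYPN fell by 2.25 on the log2 scale against 0 h (SE 0.39, adjusted p = 0.0203; 8.79e-05 with the block) and fell by 2.40 against 8 h (adjusted p = 0.0183). The fall passed without untreated replicate 1 (-1.98, adjusted p = 0.0321), and missed without replicate 2 (0.108) or 3 (0.0999) at 24 h.

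Its close relative palladin, PALLD, was at -0.12 (adjusted p = 0.416). ACTN1, the alpha-actinin of stress fibres, stood at 798, 732 and 741 CPM at 0 h, 868, 762 and 729 at 8 h, and 735, 653 and 588 at 24 h. Only the highest library at 24 h reached the untreated range, and the log2 fold change of -0.20 did not pass in either fit (SE 0.12, adjusted p = 0.297; 0.0803 with the block). ACTN4 was at 0.03, and filamin A, FLNA, the crosslinker of cortical networks, at -0.24 (adjusted p = 0.381). LIMA1, the filament stabiliser EPLIN, was at -0.28 without overlap between groups (adjusted p = 0.130; 0.0387 with the block). The muscle genes SYNPO2, FLNC and LMOD1 stayed under 1 CPM in every library.

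Of the focal adhesion and LIM domain genes, FHL2 fell. FHL2 encodes a LIM protein that moves between adhesions and the nucleus, is itself an SRF target and binds SRF, and the boxes before its starts are printed above. The gene lies at chr2:105357712-105438513. It stood at 262, 187 and 177 CPM at 0 h, 218, 198 and 185 at 8 h, and 154, 117 and 107 at 24 h. All libraries at 24 h were below all others, while the highest library in each group was replicate 1.

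FHL2 fell by 0.73 on the log2 scale against 0 h (SE 0.17, adjusted p = 0.0393; 0.00037 with the block). Against 8 h its change of -0.66 just missed the threshold (adjusted p = 0.0501). Without untreated replicate 1 the change against 0 h was -0.55 (adjusted p = 0.0637; 4.15e-05 with the block), and the call was also lost without replicate 2 (0.159) or 3 (0.174) at 24 h, or replicate 2 (0.0604) or 3 (0.0556) at 8 h. FHL1, a paralog typical of muscle, was at 0.28 (adjusted p = 0.252).

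ZYX, zyxin, which repairs strained stress fibres, was lower at 24 h without overlap (356 ± 21.5 CPM at 0 h, 268 ± 27.0 at 24 h; SD, n = 3). Its log2 fold change of -0.41 just missed the threshold (SE 0.11, adjusted p = 0.0563; 0.00911 with the block). VCL, vinculin, which ties talin to actin, stood at 102, 113 and 115 CPM at 0 h, 136, 115 and 115 at 8 h, and 139, 131 and 125 at 24 h. All libraries at 24 h were above all untreated ones, with a log2 fold change of 0.26 that did not pass in either fit (SE 0.10, adjusted p = 0.143; 0.0676 with the block), and 11.1% of its exons overlap AP3M1. TLN1, talin, was at 0.06 and PDLIM5 at 0.15. PDLIM7 at -0.52 passed only with the block (adjusted p = 0.146; 0.00948 with the block), and TGFB1I1, the adhesion protein Hic-5, at -0.30 did not pass (0.173; 0.0561 with the block).

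Of the genes for filament turnover, TMSB10, a thymosin that holds actin monomers, was at -0.57 without overlap (adjusted p = 0.0846; 0.00768 with the block). CFL1, cofilin, which severs filaments, was at -0.29 (0.269; 0.0593 with the block), and CAP1, which recharges monomers, at -0.16 (0.389). Genes on the other strand overlap 31.2% of the exons of CAP1 and 19.0% of those of CFL1. TMSB10 has 496 exon bases, and genes under 1500 bases had a median log2 fold change of -0.22 at 24 h. Per kilobase of exon, TMSB10 ranked 2 of the 41 at 0 h, behind ACTB and just ahead of ACTG1. The values were 1443 ± 420.2 CPM per kilobase for TMSB10, 1903 ± 455 for ACTB and 1382 ± 407 for ACTG1. The ranges of mean ± SD of these 3 overlapped. Within each untreated library, however, ACTB stood above ACTG1, with 56.7%, 58.5% and 59.0% of the actin RNA against 43.2%, 41.3% and 40.9%. The order of TMSB10 and ACTG1 depended on the length used: with the longest transcript ACTG1, at 1833 CPM per kilobase, stood above TMSB10.

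SRF itself did not pass the test at either time. It stood at 48.7, 42.7 and 39.3 CPM at 0 h, 48.5, 42.3 and 42.2 at 8 h, and 45.0, 42.3 and 42.0 at 24 h, with a log2 fold change at 24 h of -0.02 (SE 0.11, adjusted p = 0.932). MRTFA stood at 66.9, 57.2 and 55.1 CPM at 0 h, 74.9, 61.3 and 57.1 at 8 h, and 52.9, 49.1 and 48.2 at 24 h. All libraries at 24 h were below all others, and the log2 fold change of -0.25 passed only with the block (SE 0.12, adjusted p = 0.201; 0.0457 with the block). MRTFB stood at 30.8, 51.2 and 54.0 CPM at 0 h, 52.0, 51.4 and 44.9 at 8 h, and 60.9, 58.0 and 49.7 at 24 h. The groups overlapped, untreated replicate 1 was the lowest of the 9, and the change of 0.31 did not pass (SE 0.18, adjusted p = 0.286; 0.188 with the block). RNA levels say nothing of where the MRTF proteins were in the cell.

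The genes with and without a complete CArG box in a window are given side by side, and the difference between them was not tested. The 10 such genes had a median log2 fold change of -0.22 at 24 h, with 9 below 0 and 2 called (FHL2 and ACTG2). The 26 tested genes whose windows had no complete box had a median of -0.28, with 17 below 0 and 1 called (MYPN). With the block, 2 of the 10 and 14 of the 26 passed. Of all tested genes, 4.25% passed without the block and 24.1% with it. TAGLN and ACTB had no window and stand outside the counts by class.

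Other genes of the pathway, none of them among the 41, were read from lists of cofactors, targets and actin regulators, beside 4.25% of all tested genes called without the block (2.47% higher, 1.77% lower) and 24.1% with it (12.6% and 11.6%). Of 19 tested SRF cofactors and genes of the MRTF branch, 1 rose and 1 fell at 24 h, with a median log2 fold change of -0.08 (1 higher and 7 lower with the block). CSRP1, a LIM protein of actin bundles, rose by 0.64 (SE 0.13, adjusted p = 0.0304), from 439 ± 36.6 to 685 ± 63.1 CPM (SD, n = 3). ITGA5, the fibronectin receptor subunit, fell by 0.49 (SE 0.12, adjusted p = 0.0403). Of 12 genes of the ternary complex factor branch, 2 rose and none fell, with a median of 0.41 (7 higher and 1 lower with the block). SPRY4, a feedback inhibitor of receptor tyrosine kinase signalling, rose by 1.40 (SE 0.23, adjusted p = 0.0199), and the immediate-early factor EGR1 by 0.75 (SE 0.17, adjusted p = 0.0359). The difference between the branches was not tested.

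Few of the actin regulators passed without the block. Of 35 nucleation and elongation genes, CYFIP2 of the WAVE complex rose by 0.78 (adjusted p = 0.0282) and VASP, which extends filaments at their barbed ends, fell by 0.49 (adjusted p = 0.0305), a share near that of all tested genes, with 3 higher and 6 lower with the block. Of 21 genes for monomer binding, capping and severing, TMOD1, which caps pointed ends, rose by 1.19 (adjusted p = 0.0199, with 45.0% of its exons overlapped on the other strand), and GSN, gelsolin, rose by 0.87 (adjusted p = 0.0477), with 4 higher and 1 lower with the block. Of 18 bundling genes, MARCKSL1 rose by 1.27 (adjusted p = 0.0199), from 217 ± 46.1 to 525 ± 109 CPM (SD, n = 3), and with the block 3 were higher and 2 lower. None of 22 focal adhesion genes outside the 41 passed without the block, where 2 were higher and 3 lower with it.

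Markers of smooth muscle cells and myofibroblasts were in part near 0 and in part expressed. Of 12 found in the table, MYH11, DES, LMOD1, SYNPO2 and ACTG2 were under 1 CPM in every library, and MYH11 had no count at 0 h. Of 9 tested, which include 4 of the 41 genes, only ACTG2 passed without the block, and the median log2 fold change was 0.11. With the block 3 were higher and 2 lower (SMTN and ACTG2). The 3 were the matrix genes LUM, at 36.2 ± 7.29 CPM (SD, n = 3) at 0 h and 60.5 ± 9.69 at 24 h, and DCN, at 3.37 ± 0.577 and 5.49 ± 0.722, and the receptor gene PDGFRB, at 5.52 ± 1.52 and 8.74 ± 1.27. All of their libraries at 24 h lay above all untreated ones (adjusted p = 0.0601, 0.0757 and 0.159 without the block, and 0.00037, 0.00526 and 0.00713 with it). The summed level of the 12 markers was 292 to 389 CPM at 0 h, 300 to 380 at 8 h and 268 to 282 at 24 h, most of it SMTN. The part of these markers in the changes of the 41 genes was not tested. Of the markers of blood, endothelial and epithelial cells, PTPRC, CD68, PECAM1, EPCAM, KRT5 and CDH1 were under 1 CPM throughout. The endothelial marker VWF was at 0.566, 0.308 and 0.398 CPM at 0 h and 1.23, 1.04 and 1.58 at 24 h. It was called higher at 24 h (adjusted p = 0.0304 in edgeR's quasi-likelihood test).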

How the data were processed

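The deposited values are raw counts per Ensembl gene for 9 libraries of total RNA. Reads were aligned with STAR 2.7.4a after bcl2fastq 2.20.0.422, on GRCh38, per the submitters' processing notes, and the libraries were stranded mRNA libraries, per the labels. The counting program, annotation release and strand setting are not given in the sources used here. Groups and replicate numbers came from the sample titles. The cell line is named as in the growth protocol, since one label spells it differently.

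Symbols were matched by Ensembl identifier, and coordinates and exon lengths are those of GENCODE 29. filterByExpr removed genes with few counts, and edgeR 4.0.16 in R 4.3.3 was fitted over all 9 libraries with TMM scaling and 1 mean per group. Each comparison used the quasi-likelihood test, two-sided, with Benjamini-Hochberg adjustment over 15273 genes and a threshold of 0.05. The test was checked on simulated counts. Libraries of a group differed by more than counting noise (chi-square per degree of freedom from 7.91 to 54.6), so none was counted as a duplicate.

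Deviations from the group means correlated across genes between same-numbered libraries, with r of 0.367, 0.164 and 0.251 for 0 h with 24 h and 0.476, 0.432 and 0.414 for 0 h with 8 h, so the numbers in the titles were taken to pair these groups. This pairing was not clean, since replicate 2 at 24 h had an r of 0.270 with untreated replicate 3, above its 0.164 with untreated replicate 2. Between 8 h and 24 h the same-numbered r were 0.423, 0.0367 and 0.404, and because of the low one no pairing was assumed there. The members and gene lists were chosen with earlier results of these data known. Genes with the value in every library were those past the threshold at 24 h and 12 chosen for their roles; from each list up to 3 past the threshold are named. Correlations among the genes are not given, because the libraries at 24 h stand apart. Alternatives were other scalings, filters and tests, leaving out each library, the block, and a length correction added after seeing the data. Some results from the gene lists are not reported here.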

Additional observations from a re-analysis of the deposited data

Results flagged for a closer look

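For TAGLN and MYPN the change from 0 h to 24 h differed from the change from 0 h to 8 h, tested as 24 h against 8 h in the same fit. Time in culture differs in the same way, so formate and time cannot be told apart in it. The difference was -1.32 for TAGLN (adjusted p = 0.0341 in edgeR's quasi-likelihood test) and -2.40 for MYPN (adjusted p = 0.0183), and for both genes all 3 libraries at 24 h lay below all 3 at 8 h. Both calls were lost without replicate 1 at 8 h (adjusted p = 0.156 and 0.0755) or without replicate 2 (0.132 and 0.0936) or 3 (0.140 and 0.0971) at 24 h. The TAGLN call was also lost without replicate 1 at 24 h (0.0600) or replicate 3 at 8 h (0.0758).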

How the results depend on the processing

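The direction of the genes as a group held in all 28 fits run, which draw on the same 9 libraries and are not independent. At 24 h against 0 h, 27 to 31 lay below 0, with medians from -0.32 to -0.16. The fits tested 38 of the genes, except 41 with no low-count filter (30 below 0) and 36 at a minimum of 1 CPM (27 below 0). Counts of calls moved more. At 24 h against 0 h, DESeq2 called 1656 genes and 9 of the 38, a fit of only the 2 groups compared called 124 and 1, the replicate block 3687 and 18, and the length correction with the block 4348 and 23. At 24 h against 8 h these were 1486 and 7, 1787 and 9 (of 37 tested), 3130 and 18, and 3889 and 20. A minimum of 1 CPM gave 4 of the 36 genes it tested there, and the length correction alone gave 4 of the 38. In that comparison the block was fitted although the numbers were not taken to pair the libraries.

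Leaving out 1 library gave 0 to 899 genes and 0 to 4 of the 38 at 24 h against 0 h (with the block 2213 to 3816 and 11 to 20), and 0 to 2545 and 0 to 13 at 24 h against 8 h (with the block 1179 to 5432 and 9 to 29). None of the 38 was called without replicate 2 or 3 at 24 h, 1 without untreated replicate 1 or replicate 3 at 8 h, and 2 without replicate 2 at 8 h. At 24 h against 8 h none was called without replicate 1 at 8 h or replicate 2 or 3 at 24 h, and 13 were called without untreated replicate 1.
With the block, TPM1, TPM3, TAGLN, TAGLN2, CNN3, MYH10, MYPN, FHL2 and TMSB10 passed at 24 h against 0 h whichever library was left out. Each of these fits called 2213 to 3816 of all tested genes. The share of all tested genes that passed in every such fit was not counted, so the line does not set these genes apart.

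Values near 0 changed sign. At 24 h against 0 h SRF was 0.0019 with upper-quartile scaling. At 8 h against 0 h the length correction gave 0.0061 for ACTG1, -0.014 for ACTN1 and -0.00020 for CALD1, and with the block 0.014 for ACTG1, -0.0076 for ACTN1 and 0.0017 for ACTB. Without 1 library, at 8 h against 0 h, TAGLN ran from -0.31 to 0.31, MYPN from -0.24 to 0.43, FHL2 from -0.15 to 0.13, SRF from -0.035 to 0.11, MRTFA from -0.0029 to 0.20, MRTFB from -0.15 to 0.37, ACTB from -0.15 to 0.16, ACTG1 from -0.18 to 0.21, ACTN1 from -0.013 to 0.12, CALD1 from -0.13 to 0.16 and TPM1 from -0.15 to 0.078. At 24 h, SRF ran from -0.085 to 0.052 against 0 h and from -0.085 to 0.010 against 8 h, and ACTG1 from -0.28 to 0.10 and from -0.20 to 0.023. The cause of these moves was not tested. With the length of the longest transcript, ACTB was 62.0% of the actins at 0 h and 59.2% at 24 h, and TPM1 was 44.5% and 41.4% of the tropomyosins, ahead of TPM3. ACTG2 had no DESeq2 adjusted p and dropped out at 1 CPM. A fit without replicate 1 in all groups was not run.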

Other observations

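Some neural stem cell and glial markers were higher at 24 h and others lower, in the same libraries in which MYPN, TAGLN, ACTG2 and FHL2 were lower. S100B was 130.3 ± 46.2 CPM (SD, n = 3) at 0 h and 340 ± 53.6 at 24 h, a log2 fold change of 1.38 (SE 0.34, adjusted p = 0.0460 in edgeR's quasi-likelihood test). The glutamate transporter gene SLC1A3 went from 1.22 ± 0.408 to 3.69 ± 1.15 CPM (1.58, SE 0.32, adjusted p = 0.0277). For both genes the libraries at 24 h lay above all untreated ones. Of 10 tested astrocytic and neural stem cell markers, 2 were called higher and none lower, beside 4.25% of all tested genes. With the replicate block 4 were higher and 2 lower, beside 24.1%. The 2 lower ones were VIM, with a log2 fold change of -0.46 (adjusted p = 0.133; 0.00858 with the block), and CD44, with -0.38 (0.0929; 0.0069 with the block), and SOX2 was at -0.20 (0.288; 0.144 with the block). For these 3 all libraries at 24 h lay below all untreated ones. VWF, an endothelial marker, was called higher at levels from 0.308 to 1.58 CPM over the untreated libraries and those at 24 h (1.60, SE 0.33, adjusted p = 0.0304), while PECAM1 was under 1 CPM.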
